A study of Mus musculus with 6 samples.

Results

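The 36 genes of MHC class I and class II antigen presentation were taken by name from a gene matrix of 32287 features, 12 of class II and 24 of class I, and all 36 passed the filter on low counts that left 10826 genes for testing. The cells were live CD11b+TOM+ cells sorted from the inguinal lymph nodes of CD169Tom mice, which carry Cre in the Siglec1 (CD169) gene and a lox-stop-lox tdTomato gene in the Rosa26 locus on a C57BL/6J background and were over 6 weeks old. The TOM label therefore marks cells that have switched on Siglec1 at some time, and their progeny, whether or not they still express it. Of 4 mice, 2 were unimmunized and 2 were taken 9 days after immunization, which in the methods of the study is subcutaneous HEL-OVA (hen egg lysozyme joined to an ovalbumin peptide) in the Sigma Adjuvant System. The methods describe that immunization for mice given SWHEL B cells and OT-II T cells the day before, and the sources used here do not say whether these 2 mice had received such cells. The mice were told apart by hashtag antibodies, 1 for each, and their cells were mixed and loaded as 2 captures for CITE-seq, in which mRNA and tagged antibodies are read from each cell together.

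Cells were assigned to cell types by marker genes, none of which is a presentation gene, and counts were summed per mouse and gated type. The 2 captures shared 621 barcode sequences, whose 1242 barcodes could not be given a hashtag count of their own and were left out. Of 12139 cells with 1 mouse of origin, 8779 (72.3%) passed a gate, and 11 types had at least 10 cells in every mouse. These were medullary sinus macrophages (360 cells), C1q macrophages (1429), interferon-high cells (856), nonclassical monocytes (1155), classical monocytes (1753), Flt3 conventional dendritic cells (484), type 1 dendritic cells (87), migratory dendritic cells (511), B cells (298), alpha-beta T cells (969) and NK cells (399). The B, T and NK gates had lymphocyte markers although the sort was for CD11b, each with its own markers at 3512 CPM or more in every mouse. Whether these barcodes were lymphocytes carried along or doublets was not tested beyond a removal of likely doublets. CPM is the UMIs of a gene per 1000000 UMIs of a sum. It is not rescaled between sums, whereas the fitted log2 fold changes are, so a fold can differ from the printed levels. A UMI of this 3′ kit counts 1 transcript end, so levels were not divided by gene length. Sums held 23446 to 12919412 UMIs, and the smallest was that of medullary sinus macrophages in immunized mouse 2. Cells of that gate had a median of 1966 UMIs against 5877 to 12728 over all cells of the 4 mice. Unless stated otherwise, 4 values in a row are unimmunized mouse 1, unimmunized mouse 2, immunized mouse 1 and immunized mouse 2. Means are given with the SD over the 4 mice and log2 fold changes with the SE of the fit.

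MHC class I is found on nearly all nucleated cells and shows peptides of proteins made inside the cell to CD8+ T cells. Those peptides are cut by the proteasome, moved into the endoplasmic reticulum by the Tap1 and Tap2 transporter, and loaded with the help of tapasin (Tapbp), Calr and Pdia3 onto a heavy chain (H2-K1, H2-D1) paired with B2m. MHC class II, whose chain genes include H2-Aa, H2-Ab1 and H2-Eb1, is made by professional antigen-presenting cells and B cells. It is escorted by the invariant chain Cd74 to endosomes. There it takes up peptides of engulfed proteins for CD4+ T cells with the help of H2-DM, which H2-O restrains. Ciita switches on class II genes and Nlrc5 class I genes, and interferon-gamma induces both pathways and the immunoproteasome subunits Psmb8, Psmb9 and Psmb10.

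Of the 36 genes, 22 lie on chromosome 17 (GRCm38), from Tapbp at 33915899 to the end of H2-M2 at 37483552, and the class II chain genes lie together, H2-Ab1 at 34257689 to 34269419 on the plus strand, H2-Aa at 34282744 to 34287823 on the minus strand and H2-Eb1 at 34305867 to 34316674 on the plus strand. Promoter sequences were available for 30 of the 36 genes from RefSeq (GRCm38.p6, the 250 bases before each start). They are shown for some of the class II chain, H2-DM and H2-O genes, whose levels differed widely between cell types, and for both partners of the class I dimer. Each line is the 150 bases before the start, 5′ to 3′ on the strand of the gene, and capitals mark the letters searched for on both strands: ATTGG (the core of the Y box, CCAAT on the other strand), CCTAGNAAC (an X box form), GAAA on each side of any 2 bases (an interferon-response form) and GGGGATTCC (a kappaB form).
H2-Aa (chr17:34287824-34287973, minus strand): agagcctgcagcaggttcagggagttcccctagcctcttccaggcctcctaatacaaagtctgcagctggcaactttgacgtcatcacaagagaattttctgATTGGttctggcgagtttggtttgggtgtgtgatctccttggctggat
H2-Eb1 (chr17:34305717-34305866, plus strand): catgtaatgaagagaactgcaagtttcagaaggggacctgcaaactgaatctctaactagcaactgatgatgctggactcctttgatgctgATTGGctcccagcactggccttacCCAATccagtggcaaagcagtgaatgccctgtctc
H2-DMb1 (chr17:34153041-34153190, plus strand): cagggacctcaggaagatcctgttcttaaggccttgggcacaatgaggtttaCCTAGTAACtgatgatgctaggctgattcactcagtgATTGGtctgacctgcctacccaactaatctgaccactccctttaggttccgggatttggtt
H2-DMb2 (chr17:34145099-34145248, plus strand): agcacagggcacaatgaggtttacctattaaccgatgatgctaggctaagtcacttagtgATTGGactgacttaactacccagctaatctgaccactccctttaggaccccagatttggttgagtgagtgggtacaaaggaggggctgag
H2-Ob (chr17:34238755-34238904, plus strand): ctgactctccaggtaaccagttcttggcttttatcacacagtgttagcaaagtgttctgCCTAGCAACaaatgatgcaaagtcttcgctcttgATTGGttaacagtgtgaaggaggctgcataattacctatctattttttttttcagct
H2-Oa (chr17:34092229-34092378, plus strand): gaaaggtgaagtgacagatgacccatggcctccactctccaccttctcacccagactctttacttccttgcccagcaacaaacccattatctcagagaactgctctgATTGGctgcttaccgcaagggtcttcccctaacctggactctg
H2-K1 (chr17:34000348-34000497, minus strand): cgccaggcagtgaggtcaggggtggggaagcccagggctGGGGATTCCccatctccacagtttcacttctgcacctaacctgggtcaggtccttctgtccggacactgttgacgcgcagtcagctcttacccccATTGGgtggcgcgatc
B2m (chr2:122147537-122147686, plus strand): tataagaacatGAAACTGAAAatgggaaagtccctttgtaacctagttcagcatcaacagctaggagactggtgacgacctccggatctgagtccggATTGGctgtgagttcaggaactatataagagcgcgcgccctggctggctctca

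ATTGG was in the 250 bases of 24 of the 30 genes and in 33.8% of all 32851 RefSeq windows of this length. The class II genes H2-DMa and Ifi30, which are not shown, have no match to any form searched for in the 150 bases before their starts. CCTAGNAAC was in H2-DMb1 and H2-Ob and in 1.29% of all windows, the interferon-response form was in B2m, H2-T22 and H2-T23 and in 2.98%, and GGGGATTCC was in H2-D1, H2-K1, H2-Q6 and H2-Q7 and in 0.213%. The stretches of H2-DMb1 and H2-DMb2, neighbouring genes on chromosome 17 for the beta chain of H2-DM, are similar in sequence. The exact X box letters searched for are in that of H2-DMb1, and that of H2-DMb2 has cctattaac at the like place, which differs by a letter. The stretch of H2-Eb1 has actagcaac, also a letter off, so a missing match does not show that an X box is absent. A match of letters is a description and not a measured binding site.

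The balance of class II over class I differed more between cell types than between mice. The log2 ratio of summed class II to summed class I CPM was highest in Flt3 conventional dendritic cells (2.35 ± 0.32), type 1 dendritic cells (2.25 ± 0.11) and C1q macrophages (2.03 ± 0.19), lower in B cells (1.68 ± 0.20), interferon-high cells (1.51 ± 0.15), classical monocytes (1.499 ± 0.09) and nonclassical monocytes (1.32 ± 0.30), lower again in migratory dendritic cells (0.66 ± 0.38) and medullary sinus macrophages (0.45 ± 0.56), and below 0 in alpha-beta T cells (-0.89 ± 0.34) and NK cells (-1.003 ± 0.25), each the mean ± SD of 4 mice. The first 3 types had overlapping values, as had the 4 types from B cells to nonclassical monocytes, and the T and NK gates overlapped each other. B cells of the unimmunized mice (1.769 and 1.853) also lay above C1q macrophages of immunized mouse 2 (1.766). Migratory dendritic cells of immunized mouse 2 (1.234) and medullary sinus macrophages of immunized mouse 1 (1.024) lay above nonclassical monocytes of unimmunized mouse 1 (1.011). The low ratio of migratory dendritic cells came with the highest class I of any type. Their summed class I was 18100, 19390, 21210 and 20930 CPM and their summed class II 25070, 27300, 28800 and 49230 CPM, against class I of 9757, 10400, 10690 and 16070 and class II of 58910, 59440, 57550 and 59190 CPM in Flt3 conventional dendritic cells. In C1q macrophages class II summed to 52440, 57790, 60010 and 61930 CPM. In medullary sinus macrophages class II was 8549, 18800, 18810 and 9170 CPM and class I 8636, 10570, 9250 and 9469 CPM, both low, and the ratio there was -0.01, 0.83, 1.02 and -0.05 in the 4 mice, so that the high and the low value of each condition lay far apart. When each gene was given equal weight, as the mean of log2(CPM + 1), the ratio of migratory dendritic cells was -0.15. With that weighting it was 2.02 in B cells, 1.78 in type 1 dendritic cells and 1.11 in C1q macrophages, so B cells then lay above both. With 4 marker genes required per gate the ratio of medullary sinus macrophages was -0.58 in the 1 mouse that kept 10 cells.

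**Figure D1:**
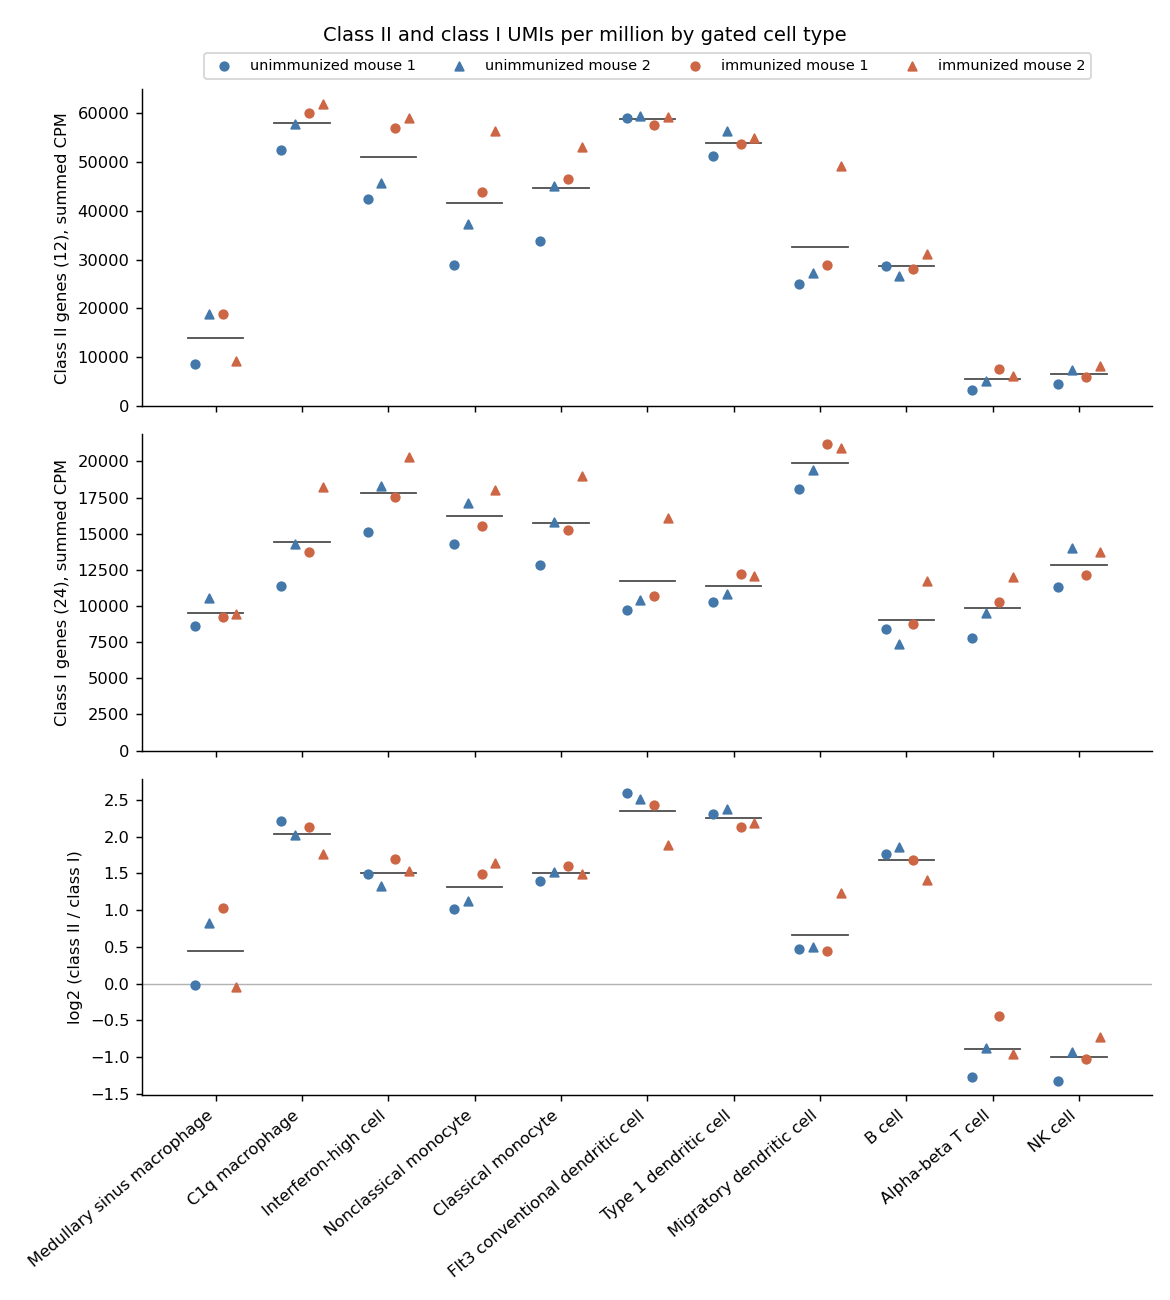
Summed class II CPM (top), summed class I CPM (middle) and the log2 ratio of the former over the latter (bottom) in the 11 gated cell types. Each point is 1 mouse, marked by mouse and condition, short bars are means, and the line at 0 in the lowest panel marks equal sums. Class I is highest in migratory dendritic cells (18100 to 21210 CPM), and the ratio is below 0 in all mice only in the T and NK gates.

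The 3 classical class II chains were H2-Aa (alpha chain of I-A), H2-Ab1 (its beta chain) and H2-Eb1 (beta chain of I-E). The alpha chain of I-E is not among the genes counted here. MHC protein was not measured, so H2-Eb1 RNA does not show that these mice make I-E. The 3 chains had nearly 1 order of cell types. The highest levels were in C1q macrophages and in Flt3 and type 1 dendritic cells. H2-Aa was 8257, 8891, 9095 and 9086 CPM in C1q macrophages, 8992, 8820, 8474 and 8563 in Flt3 conventional dendritic cells and 7596, 8109, 7441 and 7840 in type 1 dendritic cells. H2-Ab1 was 9127, 10700, 10340 and 11240 CPM in C1q macrophages, 10430, 11110, 10070 and 10800 in Flt3 conventional dendritic cells and 9994, 10630, 10220 and 10970 in type 1 dendritic cells. H2-Eb1 was 10190, 11780, 11860 and 11520 CPM in C1q macrophages, 10080, 10640, 10500 and 10620 in Flt3 conventional dendritic cells and 8282, 9822, 9409 and 9844 in type 1 dendritic cells. Within each of these 3 types the 4 mice lay close together for all 3 genes, and the conditions overlapped for H2-Eb1 in every one of them. Set against the mean of the other 10 types, each weighted equally, all 3 genes were higher in each, from 1.15 ± 0.18 for H2-Eb1 to 1.38 ± 0.18 for H2-Ab1 in type 1 dendritic cells and by 1.41 ± 0.18 for H2-Eb1 in C1q macrophages (log2 fold change, edgeR adjusted p at most 1.16e-05).

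Interferon-high cells and both kinds of monocyte had lower means than these types, with levels that were higher in the immunized mice in most cases. In both immunized mice, interferon-high cells lay above every mouse of type 1 dendritic cells for H2-Aa and H2-Eb1. For H2-Ab1 they lay within the range of type 1 dendritic cells. H2-Aa was 6505, 7219, 8408 and 8547 CPM in interferon-high cells, 4286, 5541, 6517 and 8250 in nonclassical monocytes and 5101, 7154, 6745 and 7654 in classical monocytes. H2-Ab1 was 7673, 8439, 10120 and 10760 CPM in interferon-high cells, 4816, 6139, 7438 and 10120 in nonclassical monocytes and 5943, 7662, 7905 and 9569 in classical monocytes. H2-Eb1 was 7254, 8930, 10400 and 10530 CPM in interferon-high cells, 4684, 7027, 7900 and 10350 in nonclassical monocytes and 5351, 8235, 7785 and 8806 in classical monocytes. Unimmunized mouse 1 was the lowest mouse for each of these genes in each of these 3 types, and only in classical monocytes did unimmunized mouse 2 reach above an immunized mouse, for H2-Aa and H2-Eb1. C1qa, a marker of the C1q macrophage gate, was 88.65, 90.75, 258.3 and 915.3 CPM in nonclassical monocytes. In classical monocytes it was 76.6, 240.9, 182.0 and 524.4 CPM, and in interferon-high cells 133.0, 626.0, 523.1 and 1317 CPM. The part of C1q macrophage RNA in these levels was not tested. Migratory dendritic cells and B cells had fewer chain transcripts. H2-Aa was 3603, 3888, 4247 and 7227 CPM in migratory dendritic cells and 3453, 2890, 3388 and 3949 in B cells. H2-Ab1 was 2967, 3152, 4586 and 8548 CPM in migratory dendritic cells and 3924, 3621, 3790 and 4480 in B cells. H2-Eb1 was 4360, 4850, 5344 and 9455 CPM in migratory dendritic cells and 3935, 3691, 4242 and 4710 in B cells. In migratory dendritic cells immunized mouse 2 stood well above the other 3 mice for all 3 genes, and in B cells the 4 mice were close. In neither type did any of the 3 chains differ from the mean of the other types at an edgeR adjusted p of 0.05.

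Cd74, the invariant chain, was the most abundant of the 36 transcripts in the types rich in class II. It was 21670, 22510, 24750 and 25580 CPM in C1q macrophages, 25350, 25420, 23980 and 24480 in Flt3 conventional dendritic cells and 22620, 25100, 23340 and 23030 in type 1 dendritic cells. It was 18370, 17590, 23850 and 24610 CPM in interferon-high cells, 12960, 15530, 18580 and 23310 in nonclassical monocytes and 14560, 18120, 20120 and 22870 in classical monocytes. It was 11960, 12990, 12090 and 20050 CPM in migratory dendritic cells and 14950, 13570, 13980 and 15110 in B cells. Unlike the chains it was called higher in migratory dendritic cells (0.46 ± 0.17), where the call was lost with DESeq2. Ciita, the class II transactivator, separated the dendritic cells further. It was 371, 317, 478 and 359.5 CPM in Flt3 conventional dendritic cells, 408, 301.2, 418 and 368 in type 1 dendritic cells and 50.96, 62.9, 119.8 and 223 in migratory dendritic cells. It was 239, 210.5, 231 and 262 CPM in C1q macrophages, 233, 236, 269 and 293 in interferon-high cells and 225, 290.1, 228 and 159 in B cells. It was 169.6, 189.5, 250.1 and 288 CPM in nonclassical monocytes and 233, 163, 268 and 272 in classical monocytes. Against the mean of the other types it was higher in type 1 (1.62 ± 0.14) and Flt3 conventional dendritic cells (1.54 ± 0.13) and lower in migratory dendritic cells (-0.49 ± 0.18, edgeR adjusted p = 0.0365). The last call was lost with DESeq2, when likely doublets were removed and when any of unimmunized mouse 1, unimmunized mouse 2 or immunized mouse 1 was left out. In B cells Ciita was higher by 0.64 ± 0.16 although the class II chains were not. Rfx5, a subunit of the complex that binds the X box, was at a mean of 23.3 CPM or less in every type.

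The peptide editors of class II divided the cell types in another way from the chains. H2-Ob, the beta chain of H2-O, was found almost only in B cells and the 2 conventional dendritic cell types. It was 476, 464, 362 and 289.6 CPM in B cells, 151, 193, 115 and 181 in type 1 dendritic cells and 165, 122, 91.5 and 35.1 in Flt3 conventional dendritic cells, with means of at most 14 CPM in the other 8 types. Against the mean of the other types it was higher by 5.04 ± 0.18, 3.69 ± 0.24 and 2.86 ± 0.19 in the 3 types and lower in 6, among them C1q macrophages (-1.97 ± 0.42), nonclassical monocytes (-2.003 ± 0.34), classical monocytes (-1.04 ± 0.31) and migratory dendritic cells (-1.93 ± 0.44). After each cell was thinned to 1000 UMIs, a mean of 36.9% of B cells, 14.1% of type 1 and 9.75% of Flt3 conventional dendritic cells had a UMI of H2-Ob, and at most 1.09% of any other of the 11 types. H2-Oa, its alpha chain, followed the same division. It was 204, 313, 282 and 269.7 CPM in B cells, 261, 268, 331 and 117 in Flt3 conventional dendritic cells and 158, 331, 144 and 136 in type 1 dendritic cells, and at most 32.5 CPM in any mouse of the other 8 types compared. Cd209a dendritic cells, a gate with too few cells to be compared, had H2-Oa at 48.97 CPM in unimmunized mouse 1. The level there was 68.32 CPM in immunized mouse 1 and 91.61 in immunized mouse 2. No fold is given for H2-Oa because both immunized sums of medullary sinus macrophages held no UMI of it. In B cells and in Flt3 conventional dendritic cells the H2-Ob level was lower in both immunized mice than in either unimmunized mouse. The immunization contrast did not pass in B cells (-0.23 ± 0.35, edgeR adjusted p = 0.953) or in Flt3 conventional dendritic cells (-1.14 ± 0.36, edgeR adjusted p = 0.133). The myeloid gene Lyz2 was 1370, 615, 1991 and 5652 CPM in the B cell gate. C1qa, a marker of C1q macrophages, was 38.5, 19.5, 55.0 and 685 CPM in the Flt3 gate. The part of such RNA in the H2-Ob levels was not tested.

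The 2 genes for the beta chain of H2-DM were used unequally. H2-DMb1 was 689, 951, 823 and 968 CPM in C1q macrophages, 551, 749, 804 and 965 in classical monocytes and 119.8, 139, 161 and 281 in B cells. H2-DMb2 was 444, 429, 394 and 346 CPM in B cells, 254, 190.2, 366 and 132 in Flt3 conventional dendritic cells and 32.9, 27.3, 52.6 and 35.3 in C1q macrophages. B cells thus had more H2-DMb2 than H2-DMb1 in every mouse, and the other 10 types had more H2-DMb1 in every mouse. The H2-DMb2 share of the 2 genes was 70.1% ± 10.4 in B cells (78.8, 75.5, 70.9 and 55.2% in the 4 mice), 25.9% ± 10.5 in Flt3 conventional dendritic cells (28.8, 22.7, 38.5 and 13.5%), 18.5% ± 8.38 in migratory dendritic cells, 4.22% ± 1.40 in C1q macrophages and 2.83% ± 1.09 in classical monocytes. The lowest share in both B cells and Flt3 conventional dendritic cells was that of immunized mouse 2. That mouse also had the highest Lyz2 in the B cell gate and the highest C1qa in the Flt3 gate, whose part was not tested. Against the mean of the other types H2-DMb2 was higher by 3.65 ± 0.18 in B cells, 2.84 ± 0.17 in Flt3 conventional and 0.79 ± 0.23 in migratory dendritic cells. H2-DMb1 was lower by 1.23 ± 0.24 in B cells. The 2 genes share sequence: 18.6% of the 60-base windows in the last 500 bases of the H2-DMb1 transcript also occur in H2-DMb2, so some reads of H2-DMb1 may have been given to H2-DMb2 or to neither. Of the end windows of H2-DMb2 11.1% occur in other genes, and H2-DMb1 is not among those. H2-DMa, the alpha chain, was 928, 785, 949 and 968 CPM in Flt3 conventional dendritic cells, 730.4, 709, 819 and 986 in C1q macrophages and 421, 441, 532 and 525 in B cells. Ifi30, the thiol reductase that opens disulfide bonds of antigens, was high in macrophages and monocytes and also in migratory dendritic cells (1712, 1768, 1644 and 2234 CPM), where it was higher by 1.14 ± 0.13, and it was lower in type 1 dendritic cells (496, 563, 911 and 749.8 CPM, -0.52 ± 0.16).

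**Figure D2:**
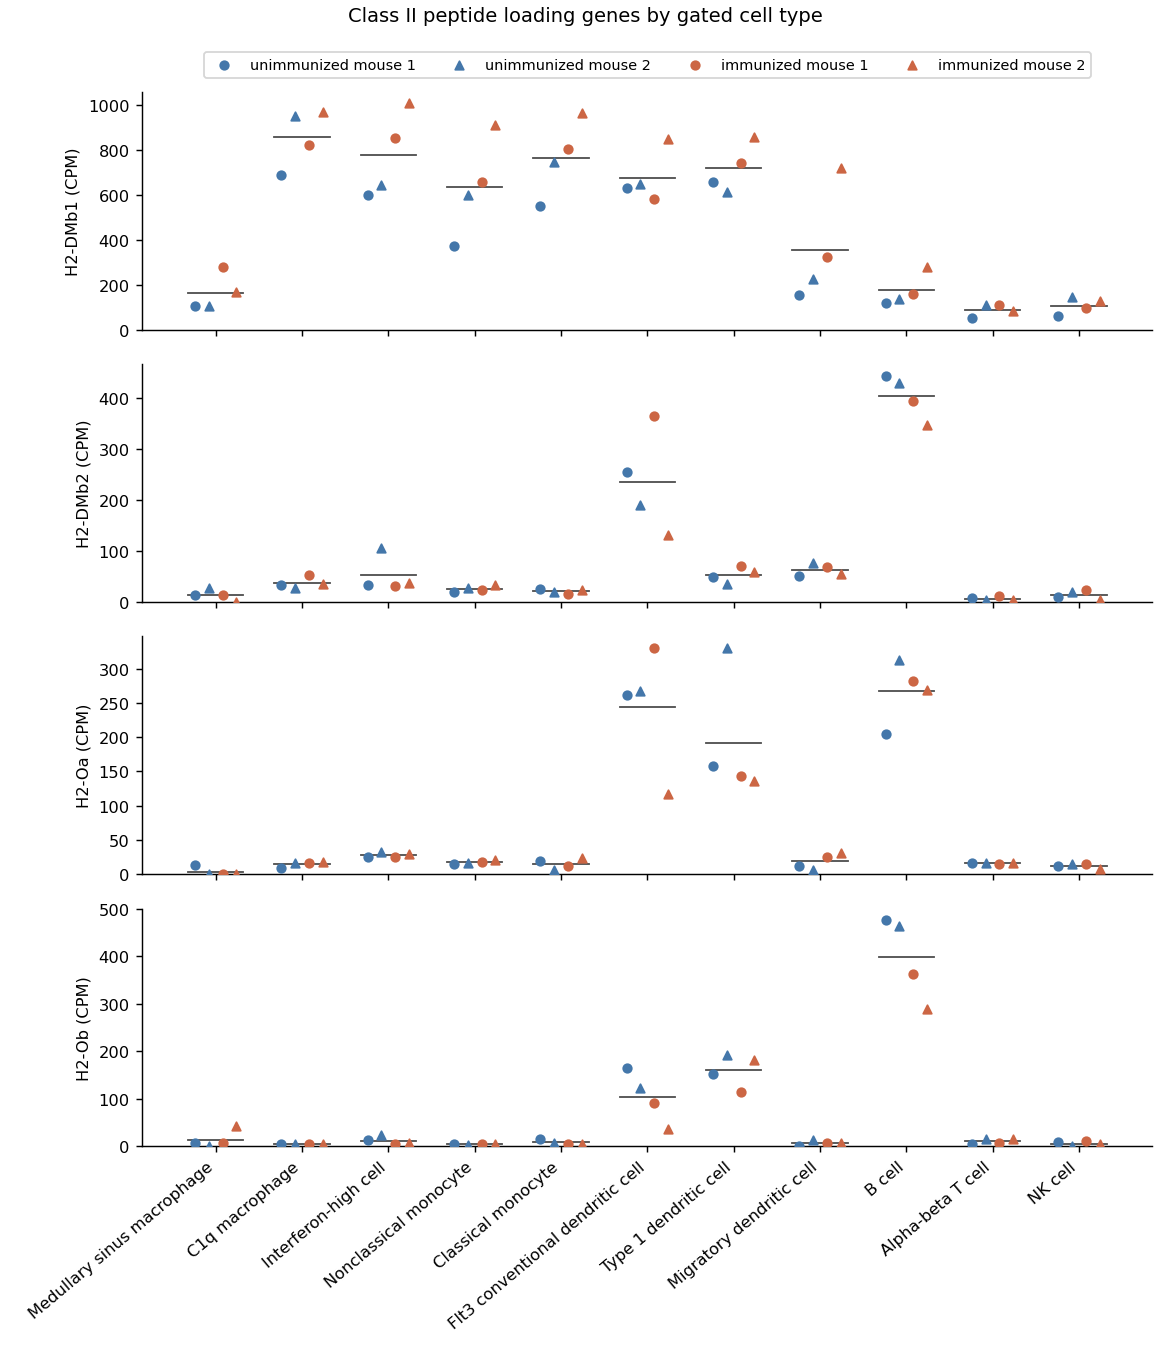
Levels of H2-DMb1, H2-DMb2, H2-Oa and H2-Ob in CPM (linear axes from 0) in the 11 gated cell types, 1 point per mouse marked by mouse and condition, with short bars at the means. H2-Ob stands out in B cells (290 to 476 CPM), type 1 and Flt3 conventional dendritic cells, and H2-DMb2 in B cells and Flt3 conventional dendritic cells, while H2-DMb1 is lower in B cells than in C1q macrophages and both kinds of monocyte.

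The classical class I genes had their highest mean in migratory dendritic cells and spanned a narrower range of levels than class II. Means ran from 1393 CPM in medullary sinus macrophages to 3845 in migratory dendritic cells for H2-K1, and from 818 CPM in T cells to 8832 in C1q macrophages for H2-Aa. H2-K1 was 3396, 3875, 3987 and 4123 CPM in migratory dendritic cells, 3033, 4054, 3294 and 3670 in nonclassical monocytes and 2804, 3839, 3431 and 3926 in interferon-high cells. H2-D1 was 2933, 3347, 3254 and 3343 CPM in migratory dendritic cells, 2958, 3403, 3141 and 3115 in nonclassical monocytes and 2756, 3445, 3200 and 3332 in interferon-high cells. B2m, the light chain shared by all class I molecules, was 4120, 4215, 4572 and 4284 CPM in migratory dendritic cells, 4026, 4481, 3802 and 3890 in nonclassical monocytes and 3600, 4145, 3803 and 4182 in interferon-high cells. These 3 types overlapped in H2-K1 and H2-D1, and all 3 genes were called higher in each of them, by 0.84 ± 0.16, 0.72 ± 0.14 and 0.87 ± 0.12 in migratory dendritic cells (edgeR adjusted p at most 1.34e-04). H2-K1 was 2487, 3724, 3016 and 3606 CPM in classical monocytes and 2154, 3574, 2809 and 3672 in C1q macrophages. H2-D1 was 2432, 3086, 3053 and 3256 CPM in classical monocytes and 2022, 2549, 2527 and 3083 in C1q macrophages. B2m was 3278, 3906, 3391 and 3964 CPM in classical monocytes and 3070, 3640, 3223 and 4004 in C1q macrophages. Here unimmunized mouse 1 was the lowest mouse for all 3 genes, and unimmunized mouse 2 lay among or above the immunized mice.

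In the conventional dendritic cells, rich in class II, none of the 3 genes was called higher. None was called in Flt3 conventional dendritic cells, where H2-K1 of immunized mouse 2 lay within the range of C1q macrophages, and H2-D1 was not called in type 1 dendritic cells. H2-K1 was 1556, 1853, 1816 and 2914 CPM in Flt3 conventional and 1401, 1649, 1924 and 1700 in type 1 dendritic cells. H2-D1 was 1763, 1882, 1998 and 2701 CPM in Flt3 conventional and 1629, 1857, 2153 and 1946 in type 1 dendritic cells. B2m was 2095, 2267, 2507 and 3336 CPM in Flt3 conventional and 1665, 1654, 2015 and 2088 in type 1 dendritic cells. In type 1 dendritic cells, which cross-present engulfed antigen on class I, H2-K1 (-0.53 ± 0.18) and B2m (-0.51 ± 0.14) were lower than the mean of the other types. Tap1 (219, 409.9, 214 and 278 CPM) and Psmb9 (708, 726, 809 and 704 CPM) were higher than that mean, by 0.88 ± 0.19 and 1.08 ± 0.15. The chaperone Calr (0.84 ± 0.18), the disulfide isomerase Pdia3 (1.14 ± 0.16), Tap2 (0.72 ± 0.22) and Psme1 (0.64 ± 0.13) were also higher there, and Psmb10 (-0.51 ± 0.17) and H2-T22 (-0.86 ± 0.22) were lower. The type 1 gate held 87 cells, with 10 in immunized mouse 2, and the B2m call was lost without either unimmunized mouse. B cells had the lowest B2m of the 11 types. H2-K1 was 1759, 1404, 1699 and 2243 CPM in B cells, H2-D1 1507, 1300, 1440 and 1916 and B2m 1411, 1126, 1503 and 2146. All 3 were called lower there (-0.57 ± 0.18, -0.64 ± 0.16 and -0.95 ± 0.14), the H2-K1 call being lost with DESeq2 and its size factors.

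Among class I genes the non-classical H2-M2 was highest in migratory dendritic cells of the 11 types compared. It was 836, 925, 751 and 571 CPM there, 121, 3.90, 91.5 and 108 in C1q macrophages and 44.6, 43.9, 92.2 and 37.0 in Flt3 conventional dendritic cells, and below 101 CPM in every mouse of the other 8 types. Of the gates that held too few cells to be compared, inflammatory macrophages had it at 877 CPM in immunized mouse 1 (11 cells, 87 UMIs) and 78.8 in immunized mouse 2, and Cd209a dendritic cells at 228 CPM in unimmunized mouse 1, 215 in immunized mouse 1 and 24.8 in immunized mouse 2. After thinning, 36.4% of migratory dendritic cells had a UMI of H2-M2 and at most 4.00% of any other of the 11 types. No fold is given because the unimmunized interferon-high and B cell sums and the immunized medullary sinus sums held none. Also higher in migratory dendritic cells were H2-Q6 (271, 390.0, 381 and 219.5 CPM, 2.04 ± 0.22), H2-Q4 (1.35 ± 0.20) and H2-Q7 (1.11 ± 0.22) of the Qa region, Tapbpl (93.3, 88.1, 131 and 80.7 CPM, 1.77 ± 0.20), a second peptide editor of class I, and Psme2 (1092, 1107, 1262 and 1219 CPM, 1.69 ± 0.14), a subunit of the PA28 proteasome activator. Nlrc5, the class I transactivator, was 154, 220.2, 114 and 110.5 CPM in migratory dendritic cells, 90.6, 92.7, 68.0 and 93.8 in interferon-high cells and 39.8, 54.3, 33.9 and 32.3 in type 1 dendritic cells. It was higher than the mean of the other types by 1.78 ± 0.16 in the first and 0.93 ± 0.18 in the second. Migratory dendritic cells thus combined the highest mean of Nlrc5 with Ciita levels below every mouse of the other dendritic cell types. Nlrc5 was 47.3, 50.7, 43.0 and 69.5 CPM in C1q macrophages, 39.4, 40.03, 41.6 and 62.7 in nonclassical monocytes and 54.0, 39.1, 46.8 and 62.8 in classical monocytes. It was 39.3, 14.6, 34.7 and 60.9 CPM in Flt3 conventional dendritic cells and 38.0, 23.2, 42.5 and 68.1 in B cells. Counts of the Qa and H2-T genes are uncertain, since 24.7% of the end windows of H2-Q4, 29.3% of H2-Q6, 51.5% of H2-T22 (with H2-T10), 30.2% of H2-T23 and 50.3% of Psme2 (with Psme2b) occur in another gene. For H2-K1 the share was 0 and for H2-D1 4.99%.

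**Figure D3:**
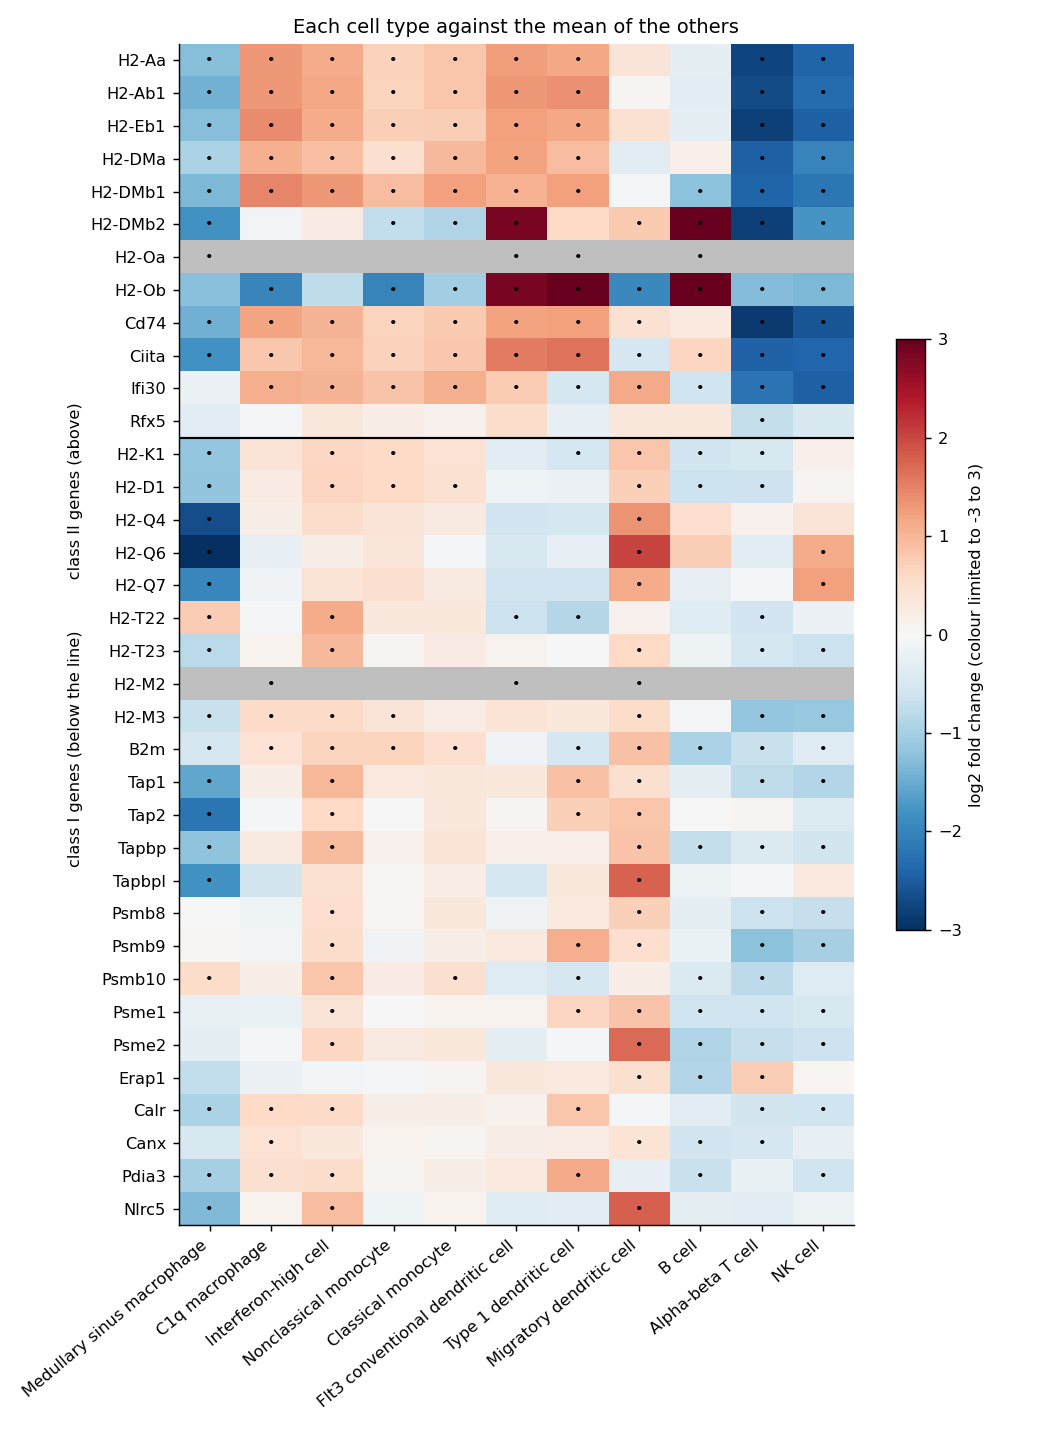
Log2 fold change of each of the 36 genes in each gated cell type against the mean of the other 10 types, each weighted equally, class II genes above the line and class I genes below, with dots where the edgeR adjusted p was under 0.05. H2-Oa and H2-M2 are grey because a group of sums held no UMI of them, so no fold is shown. Flt3 and type 1 dendritic cells are high in class II rows, migratory dendritic cells in class I rows and interferon-high cells in both.

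Interferon-high cells, gated on Ifit1, Ifit2, Ifit3, Rsad2, Cxcl10 and Oasl1, had the most genes called higher than the mean of the other types with TMM scaling. These were 25 of the 36 genes, 8 of 12 in class II and 17 of 24 in class I, and none was called lower. Beside this, 13% of all genes tested were higher there and 2.02% lower. A call against that mean does not place these cells above each type. Their mean CPM was the highest of the 11 types only for H2-T23, Tap1 and Tapbp. Of the genes not yet described there, H2-DMb1 was 600.2, 644, 855 and 1010 CPM (1.30 ± 0.17), H2-T22 235, 348, 243 and 244 CPM (1.10 ± 0.15) and Ifi30 1179, 1790, 2127 and 2133 CPM (1.02 ± 0.13). Tap1 was 262, 288, 288 and 364 CPM in interferon-high cells, 140.1, 203, 195 and 258 in nonclassical monocytes and 151, 169, 202 and 312 in classical monocytes. The first type lay above both monocyte types in unimmunized mice, and immunized mouse 2 was the highest mouse in all 3. Tap1 was 136, 168, 159 and 291 CPM in C1q macrophages, 169, 205, 154 and 298 in Flt3 conventional dendritic cells and 174, 157, 208 and 286 in migratory dendritic cells. It was 137, 128, 138 and 156 CPM in B cells. With the size factors of DESeq2 in place of TMM the count in interferon-high cells was 20 of 36 higher and 0 lower, Psmb8, Psmb9, Psme1, Tap2 and Pdia3 no longer being called, while the share of higher calls among all genes called went from 86.6% to 71.9%.

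The immunoproteasome subunits Psmb8 and Psmb9 replace the constitutive Psmb5 and Psmb6 and were present in every type. Psmb8 was 954, 944, 1369 and 1371 CPM in migratory dendritic cells, 818, 886, 1140 and 1408 in interferon-high cells and 836, 701, 1031 and 1079 in type 1 dendritic cells. It was 469, 604, 779.6 and 1125 CPM in C1q macrophages, 552, 710.0, 826 and 1219 in nonclassical monocytes and 639, 872, 996 and 1464 in classical monocytes. It was 588, 605, 628 and 1208 CPM in Flt3 conventional dendritic cells and 511, 801, 699.8 and 784 in B cells. Except in B cells, both immunized mice were above both unimmunized mice in each of these types. Psmb9 was 388, 434, 607 and 624 CPM in migratory dendritic cells, 446, 445, 531 and 725 in interferon-high cells and 251, 312, 386 and 585 in C1q macrophages. It was 262, 286, 372 and 579 CPM in nonclassical monocytes and 353, 338, 446 and 656 in classical monocytes. It was 394, 483, 383 and 665 CPM in Flt3 conventional dendritic cells and 280.5, 244, 406 and 551 in B cells. Type 1 dendritic cells held the highest mean of Psmb9 (737 ± 49.0 CPM) and migratory dendritic cells that of Psmb8 (1159 ± 243 CPM). The share of Psmb8 in Psmb8 plus Psmb5 ran from 70.7% ± 3.99 in NK cells to 86.8% ± 1.52 in migratory dendritic cells, and that of Psmb9 in Psmb9 plus Psmb6 from 55.8% ± 4.79 in NK cells to 80.0% ± 4.01 in type 1 dendritic cells.

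Over the 11 comparisons of 1 type with the mean of the others, 217 of the gene and type pairs passed at an adjusted p of 0.05 in edgeR. The genes called higher and lower, with the percent of all 10826 genes called in that direction, were 14 and 1 of 36 in C1q macrophages (10.9% and 1.87% of all genes tested), 12 and 2 of 36 in nonclassical monocytes (14.6% and 3.38% of all genes tested), 11 and 2 of 36 in classical monocytes (11.7% and 2.05% of all genes tested), 12 and 1 of 36 in Flt3 conventional dendritic cells (9.62% and 2.15% of all genes tested), 15 and 5 of 36 in type 1 dendritic cells (9.26% and 5.75% of all genes tested) and 23 and 2 of 36 in migratory dendritic cells (18.2% and 7.78% of all genes tested). In the remaining types the counts were 2 and 24 of 36 in medullary sinus macrophages (13% and 13.9% of all genes tested), 4 and 12 of 36 in B cells (14.3% and 13.7% of all genes tested), 1 and 26 of 36 in alpha-beta T cells (24% and 16.4% of all genes tested) and 2 and 21 of 36 in NK cells (15.6% and 12% of all genes tested). In C1q macrophages H2-DMb1 was higher by 1.46 ± 0.17, in type 1 dendritic cells by 1.22 ± 0.18, and in Flt3 conventional dendritic cells H2-T22 was the only member called lower (77.8, 82.9, 69.8 and 143 CPM, -0.64 ± 0.18). C1q macrophages and both kinds of monocyte had 8 of 12 class II genes higher, with 6, 4 and 3 of 24 class I genes, whereas migratory dendritic cells had 3 of 12 class II and 20 of 24 class I genes higher. Flt3 conventional dendritic cells had 11 of 12 class II genes and 1 of 24 class I genes higher. H2-DMb1, Ifi30 and H2-DMa led the loading genes in monocytes. H2-DMb1 was 374, 600.5, 659 and 911 CPM in nonclassical monocytes, where it was higher by 0.93 ± 0.18, and by 1.24 ± 0.17 in classical monocytes. Ifi30 was 1104, 1684, 1740 and 2126 CPM in nonclassical and 1341, 2220, 2034 and 1925 in classical monocytes (0.86 ± 0.13 and 1.05 ± 0.13) and 1463, 1988, 1992 and 2207 in C1q macrophages (1.10 ± 0.13). H2-DMa was 392, 459, 628 and 851 CPM in nonclassical and 632, 716, 748 and 1003 in classical monocytes (0.49 ± 0.15 and 0.97 ± 0.15). H2-DMb2 was lower in both (18.6, 26.7, 23.5 and 33.5 and 25.5, 19.5, 16.4 and 23.4 CPM, -0.73 ± 0.25 and -0.90 ± 0.26). The median log2 fold change of the 36 genes was -1.20 in medullary sinus macrophages, 0.61 in interferon-high cells and 0.53 in migratory dendritic cells, where that of all genes was -0.20, 0.05 and 0.02. No gene called here changed direction with DESeq2 or its size factors. With those size factors the share of higher calls among all genes called went from 81.2% to 67.3% in nonclassical monocytes, from 85.1% to 73.2% in classical monocytes, from 51.1% to 65.0% in B cells and from 59.4% to 73.4% in T cells, and the members called higher and lower were then 10 and 2, 9 and 2, 7 and 9, and 1 and 20. Without unimmunized mouse 1 the total of 217 fell to 124.

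Medullary sinus macrophages, which line the sinuses of the node and keep Cd209b and Marco, were called lower than the mean of the other types in 24 of the 36 genes. H2-Aa was 1269, 2643, 3087 and 1066 CPM, H2-Ab1 1334, 3418, 2995 and 1024 and H2-Eb1 1246, 4219, 3302 and 1280. Cd74 was 3475, 7183, 7588 and 3839 CPM and Ciita 35.0, 53.4, 68.6 and 42.6. Unimmunized mouse 2 and immunized mouse 1 were high and the other 2 mice low for these genes, so the conditions overlapped. The chains were lower than the mean of the other types by 1.28 ± 0.24 to 1.42 ± 0.23 on the log2 scale and Ciita by 1.81 ± 0.26. The lowest mean of H2-Aa, H2-Ab1, H2-Eb1 and Ciita was not in this gate but in alpha-beta T cells. H2-K1 was 1420, 2056, 1287 and 810.4 CPM, H2-D1 1154, 2083, 1160 and 682 and B2m 2355, 2563, 2143 and 2388. Tap1 was 49.96, 80.1, 81.7 and 85.3 CPM and Nlrc5 24.98, 26.7, 22.9 and 0. All 5 were called lower (-0.51 ± 0.14 for B2m to -1.57 ± 0.29 for Tap1). The largest differences downward were in H2-Q6 (11.7, 26.7, 16.3 and 0 CPM, -3.11 ± 0.56) and H2-Q4 (15.0, 80.1, 16.3 and 0 CPM, -2.66 ± 0.46), beside H2-Oa at 13.3, 0, 0 and 0 CPM. A count of 0 in the sum of immunized mouse 2 allows up to 128 CPM (3 counts of 23446 UMIs, counting error only), so the zeros of Nlrc5, H2-Q6 and H2-Q4 there are not shown to be absence. The immunoproteasome was not low: Psmb8 was 673, 854, 1048 and 1535 CPM and Psmb9 385, 374, 513 and 682, neither called, and Psmb10 (321, 374, 428 and 810.4 CPM, 0.55 ± 0.16) and H2-T22 (192, 267, 255 and 469 CPM, 0.76 ± 0.20) were the only members called higher. Those 2 calls were lost without unimmunized mouse 1 or immunized mouse 1, and the gate held 15 cells in unimmunized mouse 2 and 10 in immunized mouse 2. The gate also held some lymphocyte RNA. The T cell marker Cd3e was 59.95, 0, 0 and 0 CPM and the B cell marker Cd79a 18.3, 26.7, 13.1 and 0 CPM. The part of such RNA in these levels was not tested.

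B, T and NK gates allow a check of class II RNA in cells that should lack it, since mouse T and NK cells do not make class II. In alpha-beta T cells H2-Aa was 486, 771, 1148 and 869 CPM, H2-Ab1 595, 928, 1273 and 1159 and H2-Eb1 514, 917, 1284 and 1078. Cd74 was 1273, 2040, 3191 and 2345 CPM and Ciita 20.9, 36.4, 40.1 and 58.0. In NK cells H2-Aa was 742, 1112, 923 and 1136 CPM, H2-Ab1 844, 1308, 1082 and 1637 and H2-Eb1 764, 1462, 1068 and 1334. The T cell levels were 12.3% of the classical monocyte level for H2-Aa, 12.7% for H2-Ab1, 11.7% for Cd74 and 16.6% for Ciita, beside 11.8% for Lyz2 and 12.6% for Cd68, which are myeloid genes. In NK cells Cd74 was 1770, 2757, 2327 and 3574 CPM and Ciita 23.3, 42.05, 45.5 and 48.5. Removal of the 206 likely doublets found over all kept cells took the T gate from 969 to 943 cells and the NK gate from 399 to 391. The mean H2-Ab1 level then went from 989 to 467 CPM in T cells and from 1218 to 694 in NK cells, and that of Lyz2 in T cells from 2862 to 1330. The share of cells with a UMI of H2-Ab1 after thinning to 1000 UMIs was 34.8% in T and 35.3% in NK cells (unthinned 89.3% and 87.1%), against 61.9% in medullary sinus macrophages, 65.3% in migratory dendritic cells, 89.9% in C1q macrophages, 96.5% in B cells and 99.8% in Flt3 conventional dendritic cells. The source of the class II UMIs in the T and NK gates was not tested beyond the removal of likely doublets. B cells differed from both: their Lyz2 was 9.96% and their Cd68 13.2% of the classical monocyte level, but their H2-Ab1 was 50.9%, their Cd74 76.1% and their Ciita 96.5%.

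Class I levels in T cells were near those of B cells, and NK cells had more H2-K1 and H2-D1. In T cells H2-K1 was 1523, 2185, 2157 and 2380 CPM, H2-D1 1289, 1732, 1721 and 2046 and B2m 1700, 1936, 2082 and 2256. In NK cells H2-K1 was 2621, 3518, 2962 and 3028 CPM, H2-D1 2055, 2939, 2491 and 2947 and B2m 2324, 2574, 2126 and 2446. All 3 genes were lower in T cells than in the other types, and in NK cells only B2m was (-0.39 ± 0.13). Tap1 was 85.9, 103, 112 and 171 CPM in T and 93.3, 103, 93.4 and 154 in NK cells, and Nlrc5 was 36.6, 36.4, 39.4 and 79.8 in T and 48.2, 84.1, 43.0 and 44.5 in NK cells. Psmb8 was 457, 536, 665 and 752 CPM in T and 446, 579, 554 and 772 in NK cells. Psmb9 was 128, 180.3, 245 and 312 CPM in T and 187, 219.6, 231 and 336 in NK cells. NK cells had the highest H2-Q7 of any type (887, 1103, 940.5 and 1092 CPM, 1.22 ± 0.21) and high H2-Q6 (232, 178, 229 and 190.0 CPM, 1.12 ± 0.25), and these were the only members called higher in them. In T cells only Erap1, the aminopeptidase that trims peptides for class I, was higher (69.9, 66.2, 59.1 and 49.3 CPM, 0.73 ± 0.15). Outside the 12 genes described in every type, the largest differences downward among those called were in H2-DMb2 (6.96, 3.31, 11.96 and 4.35 CPM, -2.81 ± 0.31), H2-DMa (-2.44 ± 0.20) and H2-DMb1 (-2.40 ± 0.24) in T cells and in Ifi30 (178, 346, 212 and 222 CPM, -2.45 ± 0.19), H2-DMb1 (-2.16 ± 0.25) and H2-DMa (-2.01 ± 0.21) in NK cells, and in B cells in H2-DMb1, Psme2 (-0.91 ± 0.19) and Erap1 (-0.88 ± 0.26).

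Immunization was compared first as the equal-weight mean over the 11 types, with 2 mice in each condition. Of the 36 genes 22 were higher in immunized mice and 0 lower, 8 of 12 in class II and 14 of 24 in class I, while of all genes tested 11% were higher and 5.33% lower. The median log2 fold change was 0.41 over the members and 0.01 over all genes. All 5 genes of the immunoproteasome and the PA28 activator rose: Psmb10 by 0.77 ± 0.09, Psme2 by 0.73 ± 0.10, Psmb9 by 0.70 ± 0.10, Psmb8 by 0.69 ± 0.09 and Psme1 by 0.53 ± 0.08 on the log2 scale (edgeR adjusted p at most 1.64e-05). For each of these 5 the immunized mice lay above the unimmunized mice without overlap in 9 of 11 types, and for H2-DMa in 10. The 11 types come from the same mice and are not separate replicates. The share of all genes without overlap was not counted, so these counts have no background and only describe the values. In class II the loading genes and the regulator rose beside the chains. H2-DMb1 rose by 0.72 ± 0.12, H2-DMa by 0.70 ± 0.10, Ciita by 0.63 ± 0.10 and Ifi30 by 0.50 ± 0.09, and the chains H2-Ab1 by 0.48 ± 0.12, H2-Eb1 by 0.43 ± 0.12 and H2-Aa by 0.41 ± 0.11, with Cd74 rising by 0.42 ± 0.10 (edgeR adjusted p at most 0.0111). Neither H2-Ob (0.02 ± 0.20) nor H2-DMb2 (0.26 ± 0.18) nor Rfx5 (-0.14 ± 0.15) passed. In class I the heavy chains did not pass, H2-K1 at 0.24 ± 0.10 (edgeR adjusted p = 0.0949) and H2-D1 at 0.25 ± 0.09 (0.0526), and B2m rose by 0.24 ± 0.08 (0.0222). Tap1 rose by 0.50 ± 0.12, while Tap2 was at 0.42 ± 0.15 (edgeR adjusted p = 0.0603) and the regulator Nlrc5 at 0.18 ± 0.14 (edgeR adjusted p = 0.435). Of the non-classical genes 5 of 7 rose, H2-Q4 by 0.51 ± 0.17, H2-Q7 by 0.44 ± 0.15, H2-M3 by 0.41 ± 0.09, H2-T23 by 0.32 ± 0.08 and H2-T22 by 0.31 ± 0.10, and of the 8 peptide-loading genes Tap1, Calr (0.43 ± 0.11) and Pdia3 (0.37 ± 0.10). For H2-T22 the mean CPM was higher in immunized mice in only 6 of 11 types. Of 17 settings, the rise was called in 6 for H2-Q7 and H2-T22, 8 for B2m, 9 for H2-Q4 and Pdia3, 11 for H2-T23, 13 for Calr and 15 for Tap1 and H2-M3. Among class I genes that did not pass in the main fit, the averaged effect was called in 8 settings for H2-D1, 6 for Tap2 and 4 for H2-K1 and Tapbpl.

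The count depended on the scaling of the sums. With the size factors of DESeq2 13 members were higher and 1 lower (Canx at -0.28), and among all genes called the higher share went from 67.4% to 25.8%. That scaling moved the median of all genes from 0.01 to -0.139, and the median of the members lay 0.403 above that of all genes with TMM and 0.389 above it with the size factors. H2-Aa, H2-Eb1 and Cd74 were not called under either DESeq2 setting. Without unimmunized mouse 1, the larger of the 2 unimmunized samples with 2828 cells against 537, 8 members were called, and without any other mouse 16 to 21. Without the medullary sinus, B, T and NK gates, an alternative chosen after seeing the data, 19 were called, H2-Aa, H2-Eb1, Cd74 and B2m not among them. The rise of H2-Q4 rested on 3 of the mice: its log2 fold change was -0.00863 without immunized mouse 1, 0.0449 without unimmunized mouse 1 and 0.372 without immunized mouse 2, none of them called. H2-DMa, Psmb8, Psmb9, Psmb10, Psme1 and Psme2 were called in all 17 settings. The fit treats the sums of 1 mouse as independent, so the SEs and p-values of this mean over types can be too small. Immunized mouse 2 had the highest level of Tap1, Tap2, Psmb8, Psmb9 and Psmb10 in 10 of 11 types. The median depth per cell was also higher in immunized mice (9674 and 12728 UMIs against 5877 and 6280), and so was Lyz2 in classical monocytes (21820, 19950, 29200 and 25700 CPM) and in migratory dendritic cells (3516, 5781, 7926 and 17640 CPM). The part of these in the result was not tested.

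**Figure D4:**
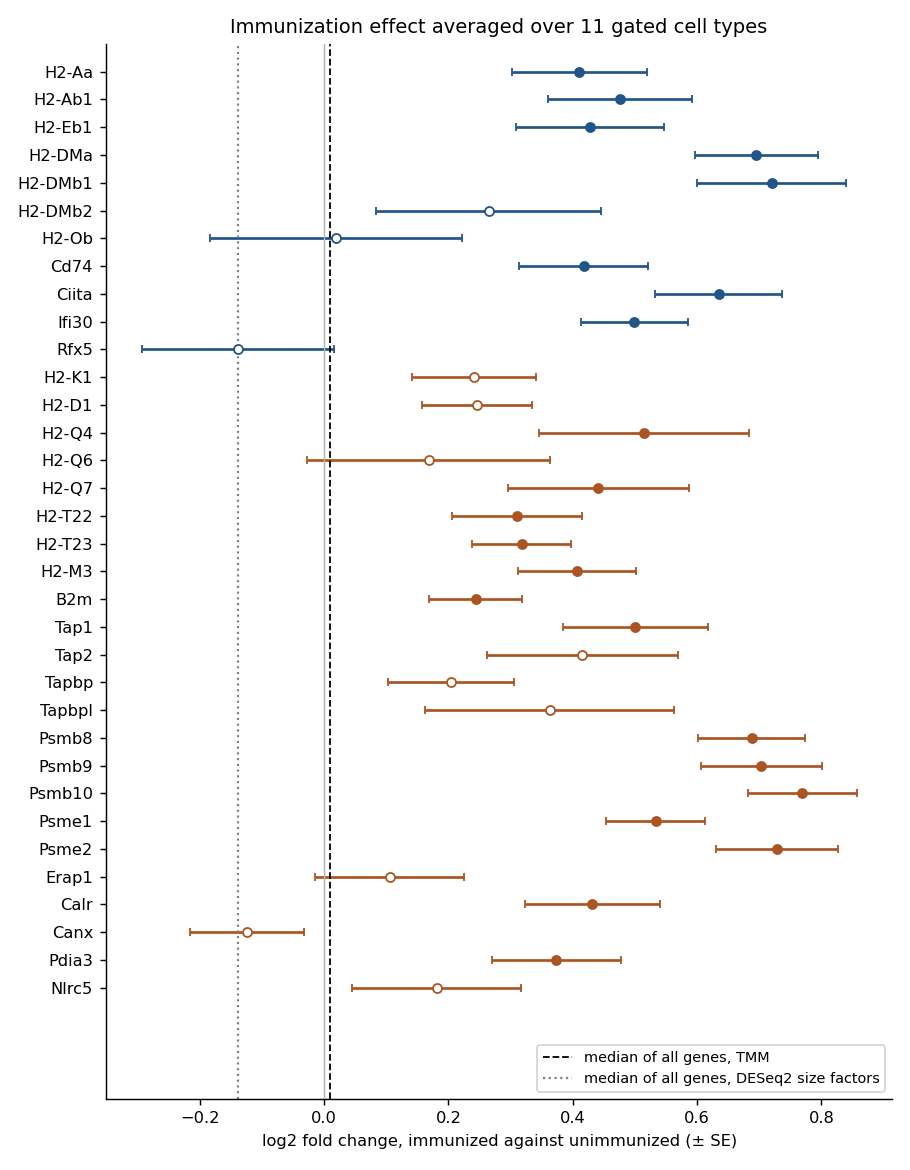
Log2 fold change of 34 of the 36 genes (without H2-Oa and H2-M2, of which a group of sums held no UMI) between immunized and unimmunized mice, averaged with equal weight over 11 gated cell types, with bars of 1 SE. Class II is blue and class I brown, and the vertical lines mark 0 (grey), the median of all genes with TMM (dashed) and with the size factors of DESeq2 (dotted). Filled points passed the adjusted threshold of 0.05, and the immunoproteasome and PA28 genes lie between 0.53 and 0.77 while H2-K1, H2-D1 and Nlrc5 did not pass.

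Within single types few members passed. Of 11 contrasts, members were called in migratory dendritic cells (3), Flt3 conventional dendritic cells (1) and interferon-high cells (1), where 0.591%, 0.748% and 1.55% of all genes were called, and none in the other 8, where 0.267% of gene and type pairs were. In migratory dendritic cells Ciita was 50.96, 62.9, 119.8 and 223 CPM, H2-DMa 176, 252, 322 and 656 and H2-DMb1 157, 226, 324 and 722. Each was higher in both immunized mice than in either unimmunized mouse, and immunized mouse 2 was the highest by a wide margin. Ciita rose by 1.73 ± 0.33 (edgeR adjusted p = 0.0137), H2-DMb1 by 1.59 ± 0.39 (0.0474) and H2-DMa by 1.33 ± 0.33 (0.0478). Markers of other cells moved in this gate too. Lyz2 was 3516, 5781, 7926 and 17640 CPM, the 6 classical monocyte markers (all with UMIs) summed to 81.8 to 215 CPM in unimmunized and 332 to 509 in immunized mice, the 9 C1q macrophage markers (all with UMIs) to 308 to 327 and 310.4 to 1428, and the 7 migratory markers to 6392 to 9820 and 3307 to 6151. With 4 markers required, Lyz2 was 2198, 612, 4957 and 12640 CPM and Ciita 49.2, 36.9, 101 and 177, H2-DMa 158, 125, 273 and 519.7 and H2-DMb1 131, 73.8, 242 and 543, and the 3 calls held. Beyond that their part in the result was not tested. The 3 calls were lost without unimmunized mouse 1 or 2 or immunized mouse 2 and with hashtags called by HTODemux, and H2-DMa and H2-DMb1 also with DESeq2, with its size factors and with at most 10% mitochondrial UMIs.

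In Flt3 conventional dendritic cells Psmb10 was 124, 166, 204 and 381 CPM and rose by 1.16 ± 0.29 (edgeR adjusted p = 0.0445), both immunized mice lying above both unimmunized mice. The call was lost in 8 of its alternatives, among them DESeq2, the gate of 4 markers and each of 3 mice left out, and in this gate the 9 C1q macrophage markers (all with UMIs) summed to 63.4 to 115 CPM in unimmunized and 136 to 1653 in immunized mice and the 5 Flt3 markers to 733 to 746 and 406 to 560.2. Their part was not tested. In interferon-high cells H2-M2 was 0, 0, 45.5 and 100.1 CPM, listed at 0 UMIs in both unimmunized sums, and was called (edgeR adjusted p = 0.0350). A count of 0 allows up to 3.53 CPM in unimmunized mouse 1 and 13.9 in unimmunized mouse 2, so no fold is given. C1qa in this gate was 133.0, 626.0, 523.1 and 1317 CPM, and the part of C1q macrophage RNA in the H2-M2 level was not tested. How this call depended on the alternatives is not reported. With the mouse as a block in limma, 10 members were called over all types in place of 5, with DESeq2 2, and without immunized mouse 1 78. At an unadjusted p under 0.05 the number of members was 18 in T cells, 11 in nonclassical monocytes, 10 in classical monocytes, 9 in interferon-high and in migratory dendritic cells, 8 in B cells, 7 in C1q macrophages and in Flt3 conventional dendritic cells, 6 in medullary sinus macrophages, 2 in NK cells and 1 in type 1 dendritic cells. Of all 10826 genes 6.43% had such a p in T cells (50% of the members), 10.2% in nonclassical monocytes (30.6%), 10.2% in classical monocytes (27.8%), 10.8% in interferon-high cells (25%), 11.8% in migratory dendritic cells (25%), 7.39% in B cells (22.2%), 7.11% in C1q macrophages (19.4%), 11.1% in Flt3 conventional dendritic cells (19.4%), 7.42% in medullary sinus macrophages (16.7%), 3.53% in NK cells (5.56%) and 6.03% in type 1 dendritic cells (2.78%). The 5 immunoproteasome and PA28 genes were all among them in C1q macrophages, nonclassical monocytes and classical monocytes, at log2 fold changes of 0.77 ± 0.26 to 1.06 ± 0.32 in C1q macrophages, none of which passed adjustment (lowest edgeR adjusted p 0.257). The T cell count includes class II genes, which T cells are not known to make, H2-Aa at 0.86 ± 0.36 with the conditions not overlapping, and Lyz2 in that gate was 1754, 2860, 3293 and 3542 CPM. The source of these UMIs was not tested. The log2 ratio of class II to class I was higher in immunized mice by 0.50 in nonclassical monocytes, 0.37 in T cells and 0.36 in migratory dendritic cells and lower by 0.40 in Flt3 conventional dendritic cells, the last with immunized mouse 2 alone well below the others (2.59, 2.51, 2.43 and 1.88). In nonclassical monocytes C1qa was also higher in the immunized mice (88.65, 90.75, 258.3 and 915.3 CPM), and its part in the ratio was not tested.

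**Figure D5:**
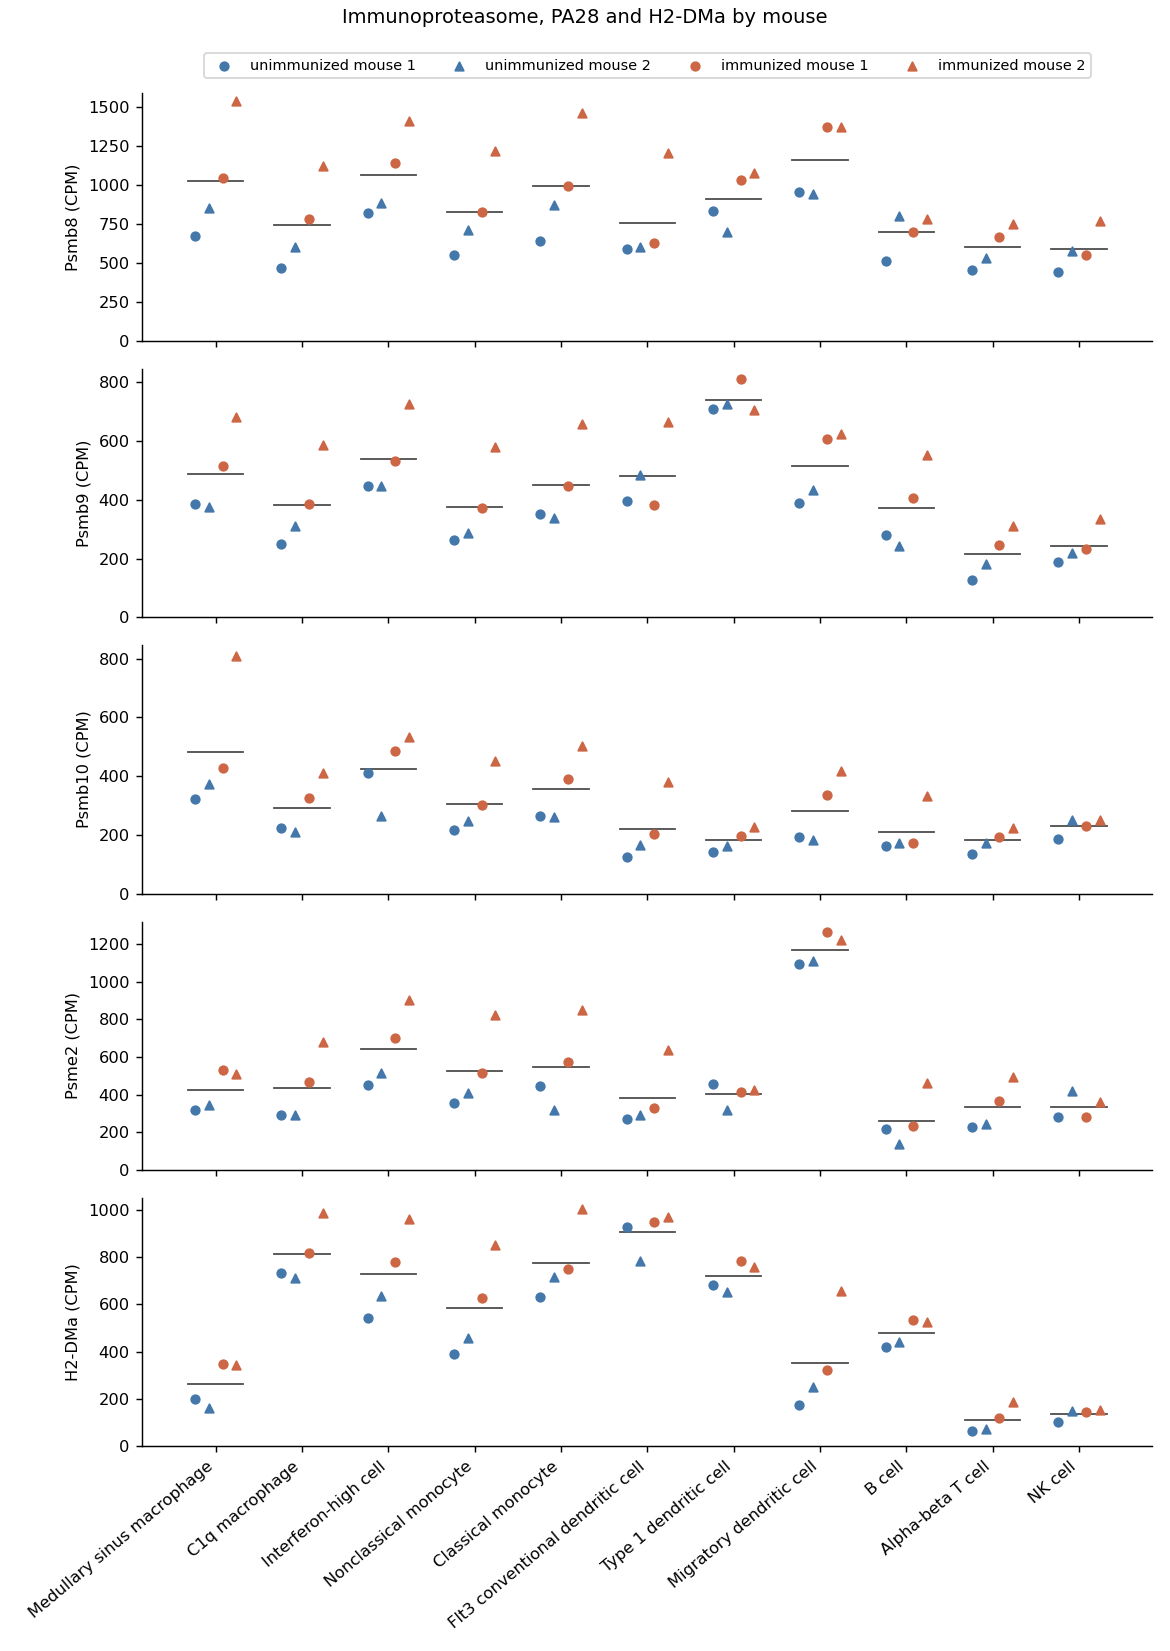
Levels in CPM (linear axes from 0) of Psmb8, Psmb9, Psmb10, Psme2 and H2-DMa in the 11 gated cell types, 1 point per mouse marked by mouse and condition, with short bars at the means. Immunized mouse 2 is the highest point for Psmb10 in 10 of 11 types, and H2-DMa in migratory dendritic cells runs from 176 and 252 CPM in unimmunized to 322 and 656 CPM in immunized mice.

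A difference of the immunization effect between 1 type and the mean of the others was tested as an interaction. No member was called in any of the 11 contrasts in edgeR or with DESeq2, and 0.0327% of all gene and type pairs were. At an unadjusted p under 0.05 there were 0 to 5 members per type, the most in migratory dendritic cells (13.9% of the members, beside 4.93% of all genes), and 2.26 to 5.63% of all genes in the 11 types. Without immunized mouse 1 the count was 11. The effects called in single types are thus not shown to differ from those of other types.

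Other genes of the pathways were taken as whole lists. Of 24 genes of antigen processing outside the 36, 12 rose with immunization averaged over types and 1, the translocon subunit Sec61a1 (-0.33 ± 0.10), fell, where 11% of all genes tested rose and 5.33% fell. The constitutive catalytic subunits rose as well, Psmb5 by 0.35 ± 0.07, Psmb6 by 0.43 ± 0.08 and Psmb7 by 0.33 ± 0.09. Against the same 11% of all genes, 5 of 7 endosomal proteases rose, Ctsl by 0.73 ± 0.21, Ctsd by 0.62 ± 0.16, Ctsz by 0.60 ± 0.10, Ctsh by 0.58 ± 0.10 and Ctss, which cuts the invariant chain, by 0.54 ± 0.10. Of 28 regulators tested, 6 rose and 3 fell, beside 11% and 5.33% of all genes. Irf1 (0.89 ± 0.17), a transcription factor of the interferon-gamma pathway, and the cytokine-signalling inhibitor Socs3 (2.24 ± 0.28) rose, and Jak1 (-0.69 ± 0.09), Creb1 (-0.38 ± 0.10) and Nfya (-0.35 ± 0.11), a subunit of the factor that binds ATTGG, fell. These counts and folds of the lists are from the fit with TMM. With the size factors of DESeq2 the higher share among all genes called went from 67.4% to 25.8%, and the list counts with that scaling are not reported. March1 and Cd83 were picked from the list after their values were seen. March1, the ligase that removes class II from the surface, was lower in migratory dendritic cells (-1.52 ± 0.33), and Cd83, which opposes March1, was higher there (3.77 ± 0.17). Both were higher in Flt3 conventional dendritic cells (1.23 ± 0.20 and 1.06 ± 0.23) and in B cells (1.008 ± 0.25 and 2.32 ± 0.24).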

How the data were processed

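Per the labels and the methods of the study, the authors mapped 3′ gene expression reads to mm10 with Cell Ranger 4.0.0 and joined 2 captures in 1 matrix, and counted hashtags with CITE-seq-count. The deposited values are UMI counts without normalization. The study left out barcodes with 2 or more hashtags, and whether reads were equalized between captures is not stated there. The antibody counts, whose panel holds no MHC protein, were not used.

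Cells were kept where 1 hashtag held at least 80% of at least 10 hashtag counts and at most 25% of UMIs were mitochondrial. A cell entered the gate of the type with the highest share of its markers detected, with at least 3 markers, and ties were left out. This rule was set after the files were seen. Mice had 537 to 4722 cells and 3817845 to 61983132 UMIs. Counts were summed per mouse and type with at least 10 cells (51 sums), and tested in 1 edgeR 4.0.16 quasi-likelihood fit (R 4.3.3, TMM scaling, filterByExpr) with Benjamini-Hochberg adjustment over 10826 genes per contrast at 0.05. P-values measure the spread between these sums, and not that between 2 mice per condition alone. The sums of 1 mouse entered as independent, so SEs and p-values of the mean over types can be too small. Limits given for zeros cover counting error only. The fit was also run on simulated counts, drawn independently for each sum and without an effect of the mouse. That run cannot show whether SEs and p-values are too small for sums that share a mouse.

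The members and lists were chosen with earlier results of these data known. All 36 genes were counted in each comparison. Values per mouse are given for H2-Aa, H2-Ab1, H2-Eb1, Cd74, Ciita, H2-K1, H2-D1, B2m, Tap1, Psmb8, Psmb9 and Nlrc5, and for up to 3 other genes with the largest difference in each direction among those called, and other pathway genes come from the lists of other processing, constitutive proteasome and regulators. Sums of 1 mouse come from the same animal, identified by hashtag. Their deviations from the condition mean correlated across 2202 genes at a median of 0.068 (-0.062 to 0.326) over 55 pairs of types in unimmunized mice and 0.178 (-0.080 to 0.84) in immunized mice. The alternatives were DESeq2 1.42.0, its size factors in edgeR, no filter on low counts, the mouse as a block (limma 3.58.1 between conditions, edgeR between types), at least 20 cells per sum, hashtags called by HTODemux (Seurat 5.3.0, 9902 cells), at most 10% mitochondrial UMIs, 4 markers per gate, 206 likely doublets removed (by Scrublet in scanpy 1.11.5), each capture alone, and each mouse left out.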

Additional observations from a re-analysis of the deposited data

How the results depend on the processing

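Of the results averaged over types for 24 single genes, 64 of 384 alternatives lost the call, 14 gained it, 5 reversed and the others kept both direction and call. Of the reversed values only H2-Q4 belonged to a called gene: H2-Q4 was at -0.00863 without immunized mouse 1, Canx at 0.0206 in capture 1 and 0.0236 without unimmunized mouse 1, and Nlrc5 at -0.379 without immunized mouse 1 and -0.0192 without immunized mouse 2 (with a mouse left out, Canx ran from -0.293 to 0.0236 and Nlrc5 from -0.379 to 0.247). The 22 members called in the averaged effect became 11 with DESeq2, 14 with its size factors, 12 in capture 2 and 8 to 21 with a mouse left out. The 5 calls within types became 2 with DESeq2, 2 with its size factors, 36 with no filter, 0 with at least 20 cells per sum (5 types), 7 with HTODemux, 2 with at most 10% mitochondrial UMIs, 0 in either capture alone, and 0 to 78 with a mouse left out. The 217 differences between types became 97 with at least 20 cells, 100 in capture 1 and 112 in capture 2, which hold 5, 5 and 7 types, and 124 to 226 with a mouse left out. The interaction count of 0 became 11 without immunized mouse 1. With the mouse as a block, the averaged count was 21, the count within types 10, the count between types 232 and the interaction count 0, and no other call count moved by over 1.5 times.

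The log2 ratio of class II to class I moved by more than its SD in 15 of 121 alternatives. With 4 markers it was -0.58 in medullary sinus macrophages, 0.93 in nonclassical and 1.18 in classical monocytes. With the mean of log2(CPM + 1) it was 1.11 in C1q macrophages, 0.93 in interferon-high cells, 0.78 in nonclassical and 0.87 in classical monocytes, 1.78 in type 1 and -0.15 in migratory dendritic cells and 2.02 in B cells. In T cells it was -0.20 with HTODemux and -1.90 without likely doublets, and in NK cells -0.31, -1.80 and, in capture 1, -1.87. The share of cells with an H2-Ab1 UMI was 56.5% in medullary sinus macrophages in capture 2, 42.2% in T cells with HTODemux and 32.3% without likely doublets, and in NK cells 40.8% with HTODemux, 38.5% in capture 1 and 32.3% in capture 2. Except where the construction gives it (fewer cells, types or genes), the cause was not tested. Depth limits the medullary sinus gate, whose smallest sum held 23446 UMIs, and 2 mice per condition limit every immunization result.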

Other observations

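Some gates held 10 cells or more only in some mice and entered no comparison. Cd209a dendritic cells, gated on Cd209a, Cd209d, Clec10a, Mgl2 and Ccl17, had a ratio of class II to class I as high as that of Flt3 conventional dendritic cells, 2.77 in unimmunized mouse 1 (33 cells), 2.57 in immunized mouse 1 (23 cells) and 2.02 in immunized mouse 2 (25 cells) on the log2 scale. H2-Ab1 there was 11670, 12090 and 11160 CPM and Ciita 267, 368 and 295 CPM. Inflammatory macrophages, gated on genes such as Nos2 and Acod1, came almost wholly from immunized mouse 2 (200 cells), with 11 cells in immunized mouse 1, 1 in unimmunized mouse 1 and 0 in unimmunized mouse 2. Their ratio was 1.16 in immunized mouse 1 and 1.37 in immunized mouse 2, with H2-Ab1 at 5219 and 10020 CPM and H2-K1 at 2136 and 4107 CPM.

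Gamma-delta T cells came mostly from unimmunized mouse 1 (146 cells), where the ratio was -1.51, H2-Ab1 525 CPM and H2-K1 1464 CPM. Neutrophils had 10 cells in immunized mouse 1, with a ratio of -2.60, H2-Ab1 at 264 CPM and H2-K1 at 940.4 CPM, the lowest class II of any gate.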
